A study of Mus musculus with 20 samples.

Results

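Thbs4, Nkain1, Nat8f5, Ces1g and Creb3l3 are 5 of the 15780 genes listed in the kidney count tables. They were selected on their LFCs (log2 fold changes), because engineered immune complexes (EIC) raised them and their levels stayed away from Control with sparsentan. All 5 passed the filter on low counts, as did 13990 genes in all. Creb3l3 passed only through the mice given EIC, since no Control mouse had more than 8 reads. The values they were chosen by were the levels in EIC and in both sparsentan groups, so those comparisons are given as a description, without p-values. The difference between the sparsentan doses was not itself part of the choice and was tested, but the levels it compares were.

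RNA was sequenced from whole kidney of 20 NCr nude mice, sp/sp homozygous females bought at 7 weeks of age, with 5 mice in each of 4 groups. Control mice were injected with PBS and gavaged with vehicle. The other groups received 6 tail-vein injections of EIC, which are complexes made in vitro from human galactose-deficient IgA1 (Gd-IgA1, 0.2 mg each time) and a recombinant human IgG against it (rIgG, 0.1 mg). EIC mice were gavaged with vehicle for 11 days, and EIC + S60 and EIC + S120 mice with sparsentan at 60 or 120 mg/kg, before kidneys were taken on day 12. Sparsentan blocks the endothelin type A receptor and the angiotensin II type 1 receptor. Nude mice lack a thymus and mature T cells, which limits all 4 groups as a model of IgA nephropathy, and sparsentan was given from the first injection on, not after injury. Total counts ran from 12662345 to 38651781 per library, and the deepest libraries were Control 651 and Control 652. EIC 65 has a count for every gene listed, whereas 234 to 654 genes are at 0 in each of the other 19 libraries. All 13 proximal tubule markers were detected in every group, with a summed level of 8651 to 14220 CPM, which are counts scaled to library size with TMM factors. In whole kidney, more cells of a type and more RNA per cell cannot be told apart.

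The 5 genes do not belong to one pathway. Thbs4 encodes thrombospondin-4, a secreted matricellular glycoprotein of tendon, muscle, vessel wall and injured tissue. Nkain1 encodes a small membrane protein that interacts with the beta subunit of the sodium pump (Na,K-ATPase). Nat8f5 belongs to the NAT8 family of membrane-bound N-acetyltransferases, whose founding member NAT8 is abundant in kidney and liver and completes mercapturic acid synthesis from glutathione conjugates. Ces1g (also called Es-x or Ces1) is a carboxylesterase, an enzyme that hydrolyses ester bonds in lipids and drugs and is best known in liver and intestine. Creb3l3 (CREB-H) is a transcription factor held in the endoplasmic reticulum membrane until it is cut free, and in liver it works with PPAR-alpha to turn on fasting genes of lipid and glucose metabolism.

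By GENCODE vM21 on GRCm38, Thbs4 lies at chr13:92751590-92794818, Nkain1 at chr4:130531602-130574173, Nat8f5 at chr6:85817218-85820972, Ces1g at chr8:93302369-93337308 and Creb3l3 at chr10:81084324-81098874, all on the minus strand. Thbs4, Nkain1 and Creb3l3 have no close relative next to them. Nat8f5 sits in a run of 8 NAT8 genes at chr6:85706727-85915687, and Ces1g in a run of 6 carboxylesterase 1 genes at chr8:93056728-93337308. Exons of Nat8f5 overlap those of Nat8f6 on the same strand, and 87 of the 937 stretches of 50 bases in Nat8f5 transcripts, 9.28%, also occur in Nat8f6. The counts of Nat8f5 are therefore uncertain to that extent. For Ces1g, 39 of 2339 such stretches, 1.67%, occur in Ces1e, Ces1c or Ces1f. Transcripts of Thbs4, Nkain1 and Creb3l3 share none with another gene.

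The promoters of the 5 genes, from RefSeq on GRCm38.p6 and running from 250 bases before each start into the first exon, were searched on both strands for 7 motifs, and no motif was matched in more than 2 of the genes. The windows below show the matches before the start, with the motif in capitals and the other bases in lower case, each 5′ to 3′ on the strand of the gene.
Nkain1, E-box at chr4:130574175-130574200: gcggccgagcCACGTGgtgggccggg
Ces1g, D-box at chr8:93337424-93337451: gggagaaacaTTATGTAAgatgttcctt
Nat8f5, nuclear receptor half-site at chr6:85821041-85821066: tcccagccctTGACCTttggtttatg
Creb3l3, nuclear receptor half-site at chr10:81092778-81092803: agtaggggagAGGTCAcacagacccg
Creb3l3, glucocorticoid receptor half-site at chr10:81099088-81099113: ccctgtcggcAGAACAatcccttagg
Creb3l3, glucocorticoid receptor half-site at chr10:81098887-81098912: tgaaggttccAGAACAgtgtgggcag
The E-box (CACGTG), which clock proteins and other factors bind, occurs in 6.02% of the 32841 promoters of that length and starts 154 bases before the Nkain1 start. The D-box (TTANGTAA) occurs in 2.06% of promoters. The nuclear receptor half-site (AGGTCA) occurs in 14.03% and is in the antisense orientation in Nat8f5, while its Creb3l3 match belongs to a second start inside the gene. The glucocorticoid receptor half-site (AGAACA) occurs in 16.1% of promoters and is present 2 times in Creb3l3, where the nearer match begins 30 bases before the start. A TATA box (TATAAA, 12.4% of promoters) was matched in Ces1g in the antisense orientation, where it overlaps a GENCODE exon of the gene. The cAMP response element (TGACGTCA, 1.55%) and the unfolded protein response element (TGACGTG, 1.65%), which CREB3 proteins can bind, were matched in none of the 5, and Thbs4 matched none of the 7. A match is a string of letters, and none was tested as a binding site.

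Thbs4 was barely detected in Control kidneys and higher in all 15 kidneys given EIC. Its levels in Control mice 651 to 655 were 0.917, 1.36, 0.871, 2.24 and 0.309 CPM, from 4 to 54 reads. EIC mice 65 to 69 had 4.34, 5.69, 3.92, 4.27 and 2.37 CPM. Thus the lowest EIC mouse was just above the highest Control mouse. EIC + S60 mice 71 to 75 had 2.82, 2.31, 4.71, 6.62 and 3.75 CPM. EIC + S120 mice 77 to 81 had 4.80, 5.30, 7.15, 7.25 and 5.30 CPM. Both sparsentan groups lay wholly above Control, and 2 EIC + S120 mice exceeded every EIC mouse. The means were 1.14 ± 0.72 (SD, n = 5) in Control, 4.12 ± 1.19 in EIC, 4.04 ± 1.71 in EIC + S60 and 5.96 ± 1.15 in EIC + S120, and the LFCs vs. Control were 1.84, 1.81 and 2.37 (SE 0.35 each).

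Nkain1 showed the same order of groups with a smaller spread. Levels in Control mice 651 to 655 were 7.63, 11.4, 8.46, 12.8 and 9.98 CPM. Levels in EIC mice 65 to 69 were 29.7, 30.0, 17.6, 23.8 and 33.1 CPM. The groups did not overlap, and EIC mouse 67 was the nearest to Control. EIC + S60 was the most variable group, with 22.7, 24.4, 24.6, 38.2 and 14.7 CPM in mice 71 to 75. EIC + S120 was the tightest, with 33.7, 31.1, 33.7, 32.3 and 31.2 CPM in mice 77 to 81. Its coefficient of variation was 34.0% at 60 mg/kg and 3.90% at 120 mg/kg. Mean levels were 10.1 ± 2.10 (SD, n = 5) in Control, 26.8 ± 6.17 in EIC, 24.9 ± 8.46 in EIC + S60 and 32.4 ± 1.26 in EIC + S120, which gave LFCs vs. Control of 1.42, 1.31 and 1.70 (SE 0.20 each).

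Nat8f5 was the most abundant of the 5 per length of transcript and the gene with the clearest step at the higher dose. Control mice 651 to 655 had 19.5, 23.3, 17.3, 12.6 and 16.8 CPM. EIC mice 65 to 69 had 43.2, 49.0, 40.3, 46.8 and 53.1 CPM. Every EIC mouse was well above every Control mouse. In EIC + S60 mice 71 to 75 the levels were 41.7, 39.2, 58.0, 29.3 and 37.1 CPM. In EIC + S120 mice 77 to 81 they were 40.2, 75.0, 74.6, 85.9 and 71.1 CPM. Mouse 77 was as low as the lowest EIC mouse, while the other 4 EIC + S120 mice were above every mouse of the other groups. Means were 17.9 ± 3.93 (SD, n = 5), 46.5 ± 4.99, 41.1 ± 10.5 and 69.4 ± 17.2 CPM in the groups in the order above, and the LFCs vs. Control were 1.36, 1.18 and 1.94 (SE 0.19 each).

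Ces1g was the one gene of the 5 whose mean was lowest, among the EIC-injected groups, at the higher sparsentan dose. Control mice 651 to 655 had 1.91, 1.81, 0.498, 2.11 and 2.09 CPM, so mouse 653 was far below the other 4. EIC mice 65 to 69 had 4.73, 10.4, 3.69, 8.18 and 5.41 CPM. All EIC mice were above Control but spread widely. EIC + S60 mice 71 to 75 had 9.04, 5.66, 7.56, 4.16 and 4.03 CPM. EIC + S120 mice 77 to 81 had 2.67, 6.25, 4.52, 7.12 and 5.36 CPM. Neither sparsentan group overlapped Control, and mouse 77, again the lowest of EIC + S120, was below every EIC mouse. Mean levels of 1.68 ± 0.67 (SD, n = 5) in Control, 6.48 ± 2.75 in EIC, 6.09 ± 2.18 in EIC + S60 and 5.18 ± 1.71 in EIC + S120 corresponded to LFCs of 1.93, 1.83 and 1.61 vs. Control (SE 0.36 each). Control 653 also had the highest summed level of 7 adipocyte markers, 364.7 CPM, against 27.8 to 89.3 CPM in the other 19 libraries. Without that mouse the LFCs of Ces1g were 1.72, 1.61 and 1.40.

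Creb3l3 had the largest LFCs of the 5 in the main fit and the fewest reads. Its counts were 8, 6, 4, 3 and 6 reads in Control mice 651 to 655, or 0.216, 0.151, 0.249, 0.204 and 0.464 CPM. EIC mice 65 to 69 had 0.965, 1.16, 0.398, 1.40 and 1.16 CPM. EIC mouse 67, with 7 reads, fell within the Control range, and the other 4 were above it. EIC + S60 mice 71 to 75 had 1.57, 0.866, 1.57, 0.985 and 0.248 CPM. EIC + S120 mice 77 to 81 had 0.889, 2.32, 1.71, 2.27 and 1.19 CPM. Mouse 75 of EIC + S60, also with 7 reads, fell within the Control range, whereas every EIC + S120 mouse was above it. The means were 0.257 ± 0.121 (SD, n = 5) in Control, 1.02 ± 0.38 in EIC, 1.05 ± 0.55 in EIC + S60 and 1.68 ± 0.64 in EIC + S120, and the LFCs vs. Control were 2.08, 2.09 and 2.80 (SE 0.40 each). The SEs belong to a separate fit to log2 CPM, which shrinks the LFCs of genes with so few reads. Its 95% intervals, a description, were 0.78 to 2.43, 0.72 to 2.37 and 1.46 to 3.11.

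**Figure D1:**
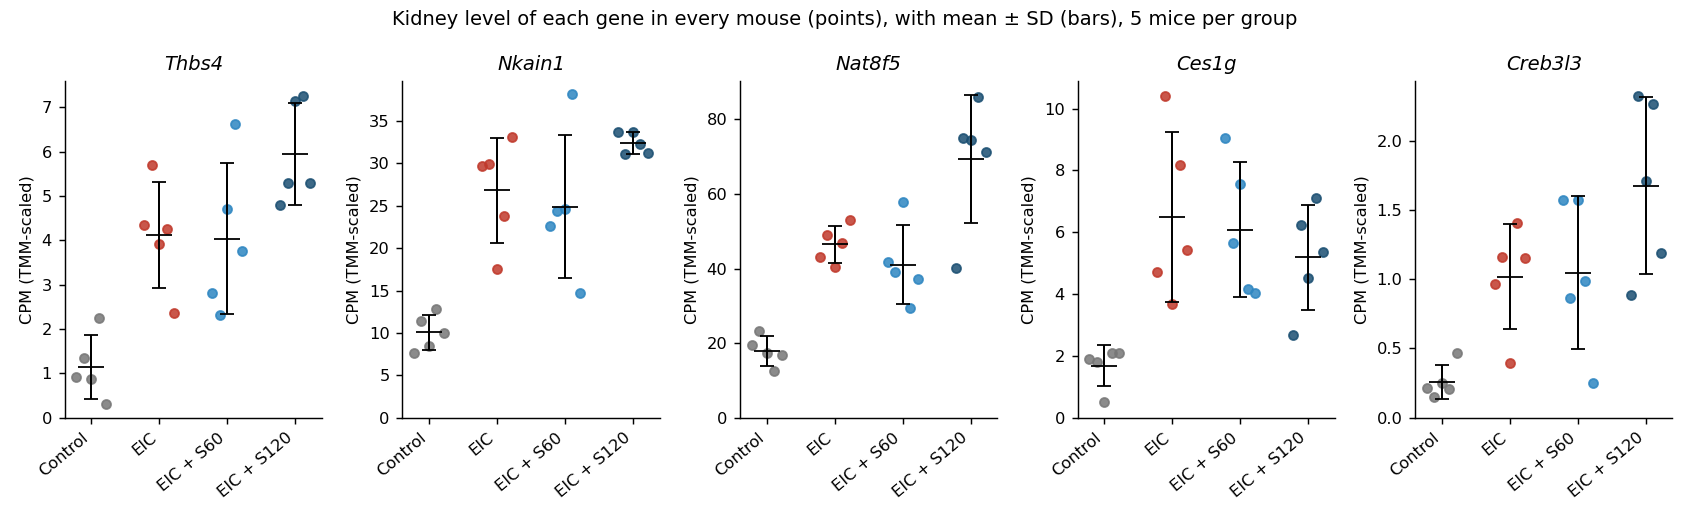
Level of each of the 5 genes in CPM after TMM scaling (y axis, linear, 1 panel per gene) in every mouse of the 4 groups (points), with the mean and SD of 5 mice (bars). Control is lowest in every panel, 4 of the 5 EIC + S120 mice stand above all other mice for Nat8f5, and 1 EIC and 1 EIC + S60 mouse reach the Control range for Creb3l3.

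Because the rule used the comparisons with Control, the counts that follow describe the choice and support nothing. All 5 genes were DE genes, higher than Control, in EIC, EIC + S60 and EIC + S120 (adjusted p under 0.05 by Benjamini-Hochberg in the quasi-likelihood test of edgeR). Of all genes tested, 1.61% were higher and 1.37% lower in EIC. With sparsentan, the shares were 0.808% higher and 0.479% lower at 60 mg/kg, then 2.89% higher and 2.67% lower at 120 mg/kg. Every mouse was above every Control mouse for 4 of the 5 genes in EIC, where 1.98% of all genes did not overlap. The same held for 4 genes in EIC + S60 (2.08% of all genes) and for all 5 in EIC + S120 (2.79%). Creb3l3 was the exception in EIC and in EIC + S60. Without the deeper Control libraries 651 and 652, the genes called fell from 5 to 3 in EIC, where Thbs4 and Creb3l3 were lost, and from 5 to 2 in EIC + S60, where Ces1g was lost too. The call of Creb3l3 was also lost in both comparisons with limma-voom and in the fit of only the 10 libraries compared, which lost Thbs4 in EIC + S60 too. Leaving out 1 mouse ended it in EIC when Control 651, Control 652 or EIC 68 was left out, and in EIC + S60 when any of Control 651 to 654 or mice 71, 73 and 74 was. In EIC + S120 all 5 calls held in every alternative, and no alternative turned a direction.

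The order of the groups can be read per gene. Control had the lowest mean for all 5. EIC + S120 had the highest for all but Ces1g, with EIC above EIC + S60 for Thbs4, Nkain1 and Nat8f5 and slightly below it for Creb3l3. For Ces1g EIC was highest, then EIC + S60, then EIC + S120. The 3 EIC-injected groups overlapped in all 5 genes. For Nat8f5 the overlap of EIC + S120 with EIC rested on mouse 77 alone. The 95% interval of that LFC, not adjusted for the number of genes, was 0.15 to 0.93. It is a description and no test, since the rule had used this comparison, and Nat8f5 was not a DE gene in it. For the other 4 genes the intervals of EIC + S120 vs. EIC, also a description, included 0. Compared per kilobase of exon, the mean levels in Control were 18.1 CPM per kb for Nat8f5, 7.05 for Nkain1, 0.705 for Ces1g, 0.346 for Thbs4 and 0.0851 for Creb3l3. In EIC they were 47.1, 18.8, 2.72, 1.25 and 0.337 CPM per kb, in the same order of genes.

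Mean levels in EIC + S60 stayed near those of EIC. In EIC + S120 the means lay farther from those of EIC, above them for all but Ces1g. The LFCs of EIC + S60 vs. EIC were −0.02 for Thbs4, −0.11 for Nkain1, −0.18 for Nat8f5, −0.10 for Ces1g and 0.00 for Creb3l3. For EIC + S120 vs. EIC they were 0.53, 0.27, 0.58, −0.32 and 0.72 in that order. None of the 5 was a DE gene in either comparison, which the rule had used. Across all genes edgeR called 0, or 0%, in EIC + S60 vs. EIC, where 847 had an unadjusted p under 0.05, DESeq2 called 5 and limma-voom 0. It called 8, or 0.0572%, between EIC + S120 and EIC, where 1182 had an unadjusted p under 0.05.

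The share of the EIC change left was computed by dividing each sparsentan LFC vs. Control by the EIC LFC vs. Control. These LFCs share the Control mice. It was 98.7% for Thbs4, 92.1% for Nkain1, 86.7% for Nat8f5, 94.96% for Ces1g and 100.2% for Creb3l3 in EIC + S60. In EIC + S120 it was 129%, 119%, 142.5%, 83.4% and 134%. Only Ces1g was thus nearer to Control at 120 than at 60 mg/kg. Among the 225 genes that EIC raised, the median share left was 79.7% at 60 mg/kg and 95.4% at 120 mg/kg. At least 80% was left at both doses for 92 of these genes, or 40.9%, and 68 of the 92 were also DE genes above Control in both sparsentan groups, so the 5 are a selection from a larger set. For Nat8f5 in EIC + S120, 201 of the 225 genes had less left, and for Ces1g 98 had. The 5 macrophage markers that EIC raised (C1qa, C1qb, C1qc, Adgre1 and Lyz2) had 39.2% to 73.6% left in EIC + S60 and 12.8% to 54.0% in EIC + S120, a contrast that the choice of the genes fixes and that was not tested.

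**Figure D2:**
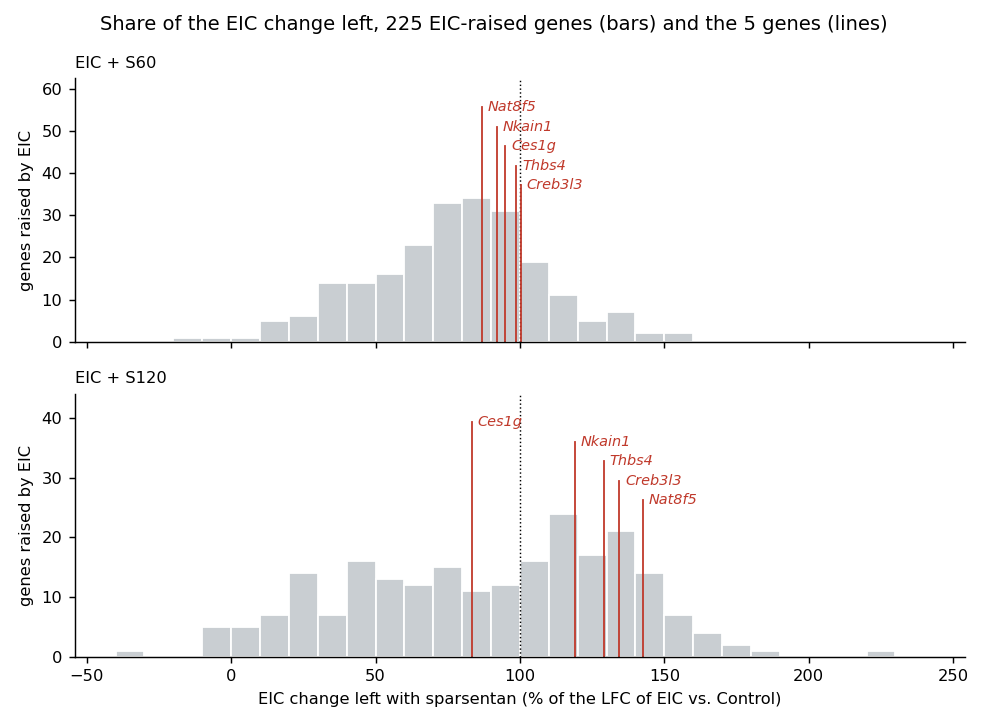
Number of genes (y axis) by the share of the EIC change left with sparsentan, in percent of the LFC of EIC vs. Control (x axis), for the 225 genes that EIC raised (grey bars), with the 5 genes as red lines and 100% as a dotted line. In EIC + S60 the 5 lie between 86.7% and 100.2%, and in EIC + S120 all but Ces1g lie beyond 100%.

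The difference between the doses, which the choice did not use, was tested. Its p-values are not wholly free of the choice, which did use the levels at both doses. No gene of the 5 passed in EIC + S120 vs. EIC + S60 (edgeR's quasi-likelihood test, two-sided, adjusted over 13990 genes), where 9 genes, 0.0643%, were called and 1131 had an unadjusted p under 0.05. Nat8f5 came nearest, with an LFC of 0.76 (95% interval 0.35 to 1.14, adjusted p = 0.167 in edgeR). Of its 5 EIC + S120 mice, 4 were above every EIC + S60 mouse. It passed with DESeq2 (adjusted p = 0.0141) and not with limma-voom (adjusted p = 0.175), and without EIC + S120 mouse 77 it passed in edgeR (adjusted p = 0.0260). Over all alternatives its adjusted p ran from 0.0141 to 0.454. For Thbs4 the LFC was 0.56 (−0.11 to 1.35, adjusted p = 0.711 in edgeR), with 2 mice above every EIC + S60 mouse. Nkain1 had an LFC of 0.38 (0.03 to 0.85, adjusted p = 0.668 in edgeR) and EIC + S120 mice wholly within the EIC + S60 range. Creb3l3 had an LFC of 0.71 (−0.09 to 1.57, adjusted p = 0.703 in edgeR) and 3 mice above every EIC + S60 mouse. Ces1g had an LFC of −0.22 (−0.97 to 0.52, adjusted p = 0.933 in edgeR). The intervals leave room for doublings of Thbs4 and Creb3l3 and for no difference, so the doses are not shown to act alike on them.

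**Figure D3:**
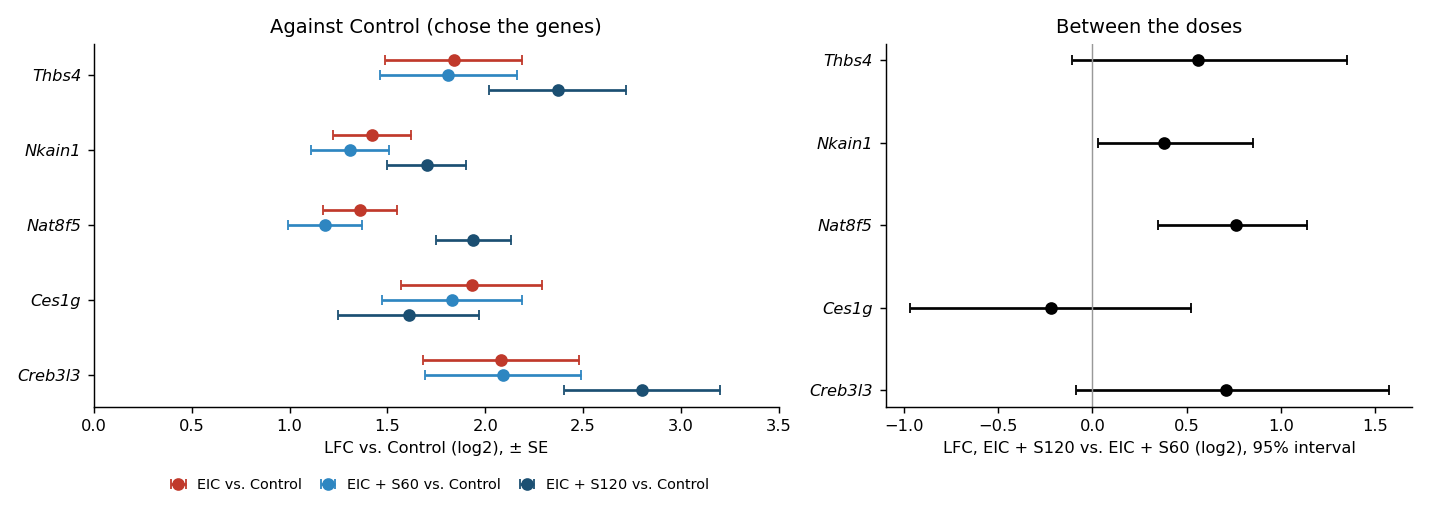
Left, LFC vs. Control (log2, x axis) of the 5 genes in EIC, EIC + S60 and EIC + S120, with SE bars, the comparisons that chose the genes. The SE bars come from a separate fit to log2 CPM, which shrinks the LFCs of low genes such as Creb3l3. Right, LFC of EIC + S120 vs. EIC + S60 with 95% intervals, where Nat8f5 lies farthest above 0 at 0.76 and Ces1g is the one gene below 0.

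The 5 genes varied together between groups more than within them. Over the 20 libraries Pearson's r of log2 CPM was 0.66 to 0.85 in the 10 pairs, a description in which every pair shares the step from Control. Of deviations from the group means, r was −0.14 to 0.56, highest for Ces1g with Creb3l3 and lowest for Thbs4 with Creb3l3. EIC mouse 67 was the lowest of its group for Nkain1, Nat8f5, Ces1g and Creb3l3. EIC + S60 mouse 75 was the lowest for Nkain1, Ces1g and Creb3l3, and EIC + S120 mouse 77 for Thbs4, Nat8f5, Ces1g and Creb3l3.

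Nat8f5 was not alone in its family. The list of other NAT8 genes has 7 that were tested, and 4 rose in EIC, 4 at 60 mg/kg and 5 at 120 mg/kg, with none lower. Their median LFCs vs. Control were 0.60, 0.67 and 0.58, where the median over all genes was −0.01. Nat8 rose by 0.83 (SE 0.15, adjusted p = 0.00388), 0.85 (0.00331) and 1.22 (3.53e-05), from 79.8 CPM in Control to 142, 144 and 186 CPM. Nat8f6, whose reads may be mixed with those of Nat8f5, rose by 0.74, 0.76 and 0.88 (adjusted p from 1.50e-05 to 0.000258). Nat8f7 rose in all groups too, by 0.60, 0.67 and 0.58. Nat8f2 passed in EIC and EIC + S120, at 0.81 and 0.77, and Nat8f1 in EIC + S60 and EIC + S120, at 0.49 and 0.45. The Nat8f2 call in EIC was lost without Control 651, and the Nat8f1 call in EIC + S60 when any of Control 653 to 655 or mice 71, 73, 74 and 75 was left out. Nat8f3, at 0.27 to 0.37, and Nat8f4, at −0.37 to −0.01, did not pass. Nat8f5 had the largest LFC of the family in each comparison, which its selection favours. Between the doses no other NAT8 gene passed. Genes of glutathione and mercapturate metabolism, the route in which NAT8 acts, were mostly not called, and 0 of 19 passed in EIC or in EIC + S60 (3 and 4 at an unadjusted p under 0.05, 1 and 2 by DESeq2, none by limma-voom). In EIC + S120 Gsta2 and Gstp1, both glutathione transferases, rose by 0.45 and 0.37.

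Ces1g likewise had relatives that rose, though fewer. Of 9 other carboxylesterases tested, Ces1d and Ces1f rose in EIC, Ces1d in EIC + S60, and Ces1d, Ces1f and Ces2c in EIC + S120, and none was lower. Ces1d, a triacylglycerol hydrolase of the same run of genes, had a mean of 410 CPM in Control and rose by 0.85 (SE 0.15, adjusted p = 0.00339), 0.82 (0.00485) and 1.38 (1.02e-05). Ces1f rose by 0.70 in EIC (adjusted p = 0.0324), a call lost when any of Control 651, 653 and 655 or EIC 65 and 69 was left out, and by 0.81 in EIC + S120. Ces2c rose by 0.77 in EIC + S120. Ces1c, Ces1e, Ces2b, Ces2e, Ces2g and Ces3a, with LFCs of −0.07 to 0.72, did not pass in any comparison. Medians of the 9 were 0.41, 0.37 and 0.48. Unlike Ces1g, Ces1d was highest at the higher dose, but its LFC of 0.55 between the doses did not pass in edgeR (adjusted p = 0.206) or limma-voom (0.257) and passed in DESeq2 (LFC 0.56, adjusted p = 0.0383).

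**Figure D4:**
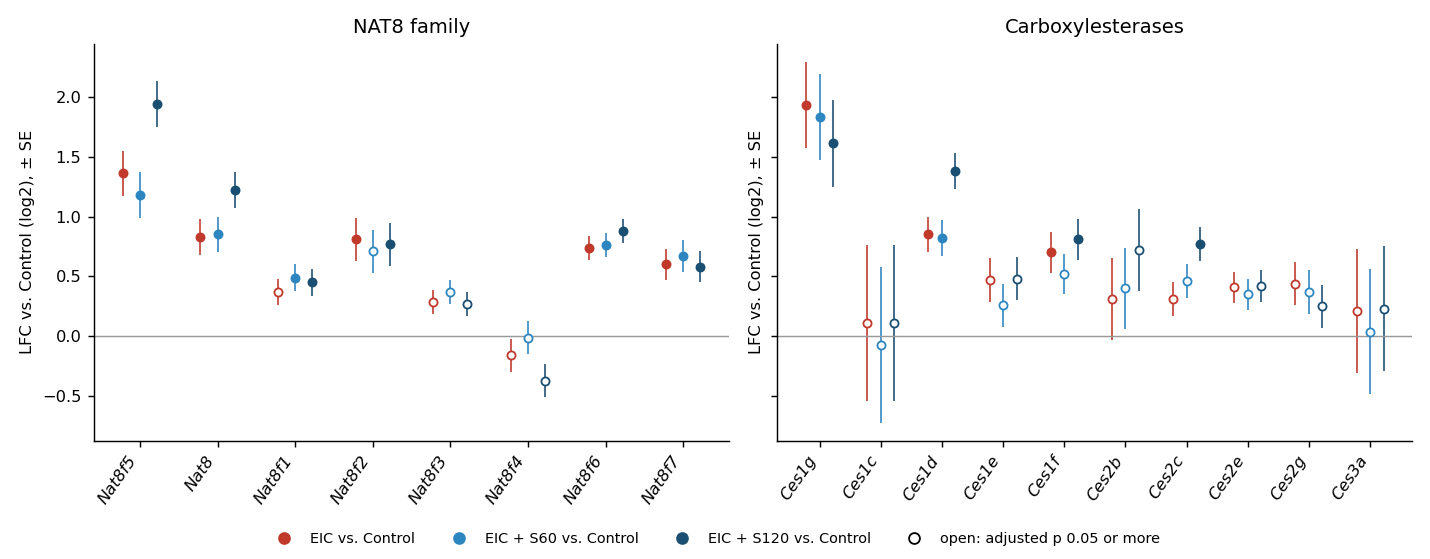
LFC vs. Control (log2, y axis) with SE bars for Nat8f5 and the 7 other NAT8 genes tested (left) and for Ces1g and the 9 other carboxylesterases tested (right), in EIC, EIC + S60 and EIC + S120, with filled points for an adjusted p under 0.05. Nat8, Nat8f6, Nat8f7 and Ces1d are filled in all 3 comparisons, and Nat8f4 and Ces1c lie about 0.

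Genes listed as targets of CREB3L3, mostly from liver, were compared with Creb3l3 itself. Of 12 tested, 3 rose in EIC (Cpt1a, Pck1 and G6pc), 2 in EIC + S60 (Cpt1a and Pck1) and 4 in EIC + S120 (Cpt1a, Pck1 and G6pc among them), with none lower. Pck1, which commits the kidney to gluconeogenesis, rose by 0.58 (SE 0.17, adjusted p = 0.0335), 0.58 (0.0480) and 1.07 (0.000114), from 4158 CPM in Control to 6194, 6230 and 8701 CPM. G6pc, the last enzyme of glucose release, rose by 1.01 in EIC and 1.42 in EIC + S120. The calls in EIC and EIC + S60 were fragile, with 0 to 4 and 0 to 2 of the 12 passing when 1 mouse was left out, whereas Pck1 and G6pc in EIC + S120 passed in every alternative. Apoa1, Apoa4 and Apoc3, apolipoproteins that CREB3L3 controls in liver, did not pass, and Fgf21, a hormone it induces there, was at 0 in all EIC + S60 mice. The rest of the CREB3 family and of its processing machinery (Creb3, Creb3l1, Creb3l2, Creb3l4, Mbtps1, Atf6, Atf6b and Scap) did not pass, with 0 of 8 called in any comparison with Control (1, 1 and 4 at an unadjusted p under 0.05, none by DESeq2 or limma-voom) and LFCs of −0.43 to 0.12.

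PPAR-alpha and fasting genes, a list that also holds Cpt1a, were counted in the same way. In EIC, 3 of 19 tested rose, in EIC + S60 the count was 3, and in EIC + S120 it was 8, with medians of 0.36, 0.31 and 0.46. Of all genes tested, 1.61%, 0.808% and 2.89% were called higher in these comparisons. Counts of this and the other lists are therefore not directly comparable between the doses. In EIC + S120 vs. EIC + S60, 0 of the 19 passed in edgeR (7 at an unadjusted p under 0.05, 2 by DESeq2). Slc25a20, the mitochondrial carnitine carrier, rose by 0.75 (SE 0.09, adjusted p = 8.49e-05), 0.61 (0.0012) and 1.02 (1.04e-06). Acaa1b, a peroxisomal thiolase, rose by 0.76, 0.73 and 1.07. In EIC + S120 Acot1, Acot2, Cyp4a31 and Pdk4 also rose, with LFCs of 0.84, 0.46, 0.51 and 1.73. Cyp4a10, Cyp4a14 and Ppargc1a did not pass. Leaving out Control 654 or EIC + S120 mice 78 or 80 lowered the count in EIC + S120 to 5. The call of Pdk4 was lost in 10 of 26 alternatives, of Acot2 in 6 and of Cyp4a31 in 5.

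**Figure D5:**
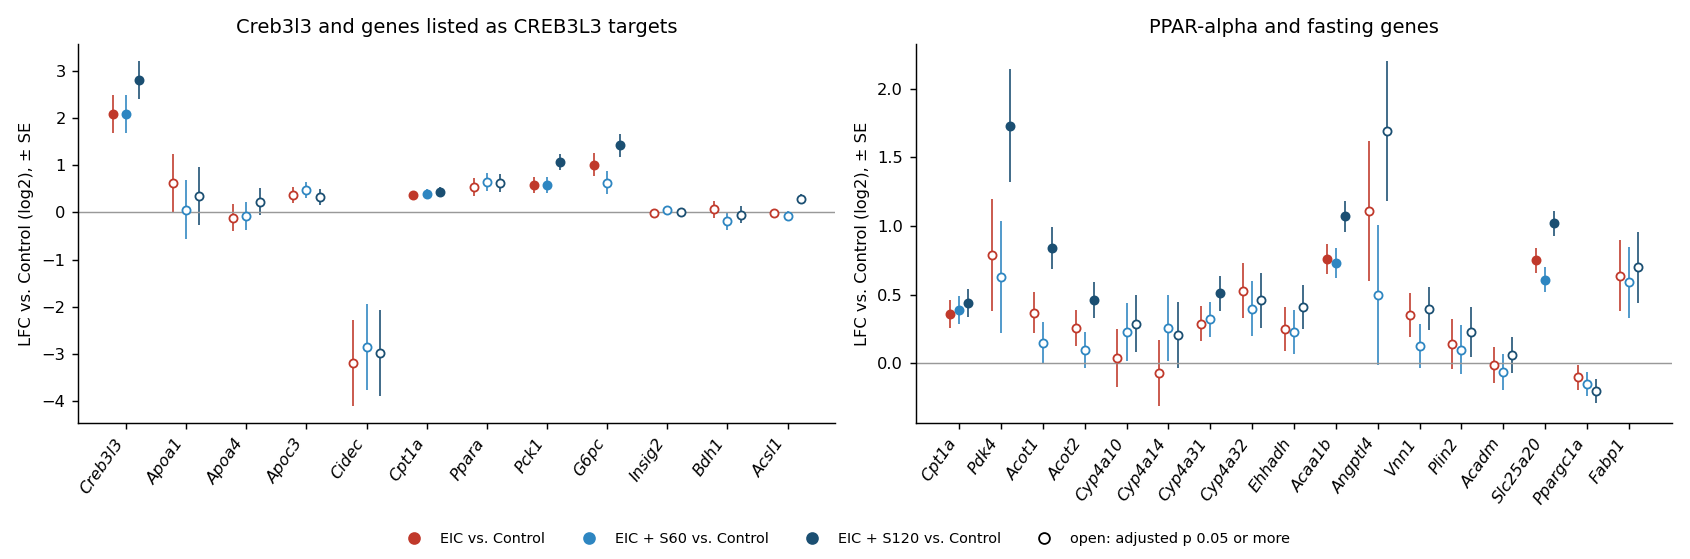
LFC vs. Control (log2, y axis) with SE bars for Creb3l3 and 11 genes listed as its targets (left) and 17 PPAR-alpha and fasting genes (right), in EIC, EIC + S60 and EIC + S120, with filled points for an adjusted p under 0.05. Creb3l3 lies above all of its listed targets, which its selection favours. In the right panel more points are filled in EIC + S120 than in EIC or in EIC + S60. Cidec, also an adipocyte marker, is far below 0 but did not pass.

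The other thrombospondin and NKAIN genes did not pass, but few were tested. Of all genes tested, 1.61%, 0.808% and 2.89% were called higher in EIC, EIC + S60 and EIC + S120. A count of 0 in such short lists therefore says little. Thbs1, Thbs2, Thbs3 and Comp, the other thrombospondins, had LFCs vs. Control of −0.21 to 0.67, and 0 of 4 passed in any group (1, 0 and 0 at an unadjusted p under 0.05, none by DESeq2 or limma-voom). Among 10 receptors and partners of thrombospondins, only Itgb2, a leukocyte integrin, passed, with an LFC of 1.18 in EIC (adjusted p = 0.0496), 0.73 in EIC + S60 and −0.06 in EIC + S120. Of 16 matrix genes 1 passed in edgeR, CYR61, lower in EIC by an LFC of −1.27 (adjusted p = 0.0444). In the 3 comparisons with Control, 5, 2 and 4 of the 16 had an unadjusted p under 0.05 in edgeR. DESeq2 called 1, 2 and 2 of them and limma-voom 1, 0 and 0. Nkain4 was the only other NKAIN gene tested and was near 0.3 CPM in every group, with LFCs of 0.23 to 0.51 that did not pass. For the sodium pump, 0 of 10 subunits and FXYD regulators passed in any group (4, 1 and 2 at an unadjusted p under 0.05, 1, 1 and 0 by DESeq2, none by limma-voom), and the beta subunit Atp1b1 had LFCs of 0.13 to 0.21.

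The genes next to the 5 on the chromosome were compared as well. Nat8f6 overlaps Nat8f5, so their reads may be mixed, and Nat8 lies 9416 bases from Nat8f5. Both rose as given above, and so did Ces1f, 22622 bases from Ces1g, in EIC and EIC + S120. Gnao1, on the other side of Ces1g and 472658 bases away, did not pass. Serinc5 and Mtx3 beside Thbs4, Snrnp40 beside Nkain1, and Thop1 and Map2k2 beside Creb3l3 did not pass, with LFCs of −0.36 to 0.14.

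Other genes resembled the 5 more closely than the 5 resembled each other. Over the 20 libraries, the genes nearest to Thbs4 by Pearson's r of log2 CPM were Slc46a3 (0.93), Per2 (0.91), Nat8f6, TMEM57 and Wee1 (0.90 each). Nearest to Nkain1 were Cry1 (0.92), Tspan4, Prnp and Abcd3 (0.91 each) and Per2 (0.90). For Nat8f5 they included Prnp and Nat8 (0.95 each), Ces1d (0.94) and Rab30 (0.93). Ces1g was nearest to Nucb2 (0.93), Grina (0.92), Tmem82 and A930033H14Rik (0.89 each) and Ncl (0.88), and Creb3l3 to Slc25a20, Slc16a13 and Tmem252 (0.89 each), Paqr7 and Ces1d (0.88 each). By deviations from the group means, which leave out the step from Control, other genes led. They were Rufy1, Ammecr1 and Mfn1 for Thbs4 (0.77 to 0.78), Keg1, Smurf2 and Gclm for Nkain1 (0.79 to 0.80), Timd2, SQRDL and Gsto1 for Nat8f5 (0.78 to 0.82), Dhrs1, Mogat1 and Slc19a1 for Ces1g (0.85 to 0.90) and Arhgap17, Mbd2 and Pex11a for Creb3l3 (0.74 to 0.78). All these are descriptions over 20 libraries that share groups, and the nearest of 13990 genes are high by selection.

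Clock genes, to which Per2, Cry1 and Wee1 belong, also differed from Control, though not all at both doses. Of 19 tested, 10 were higher and 3 lower in EIC. The counts were 9 higher and 3 lower at 60 mg/kg, then 9 higher and 2 lower at 120 mg/kg. Cry1 rose by 2.12, 1.80 and 2.93, Per2 by 1.27, 1.06 and 1.51, and Wee1 by 0.77, 0.64 and 0.91, all with adjusted p of 0.0012 or less in edgeR. The clock activator genes Arntl and Npas2 fell in EIC, with LFCs of −2.09 and −2.25, and in EIC + S60, with LFCs of −1.66 and −1.56. In EIC + S120 Npas2 was lower at −1.42, whereas Arntl, at −0.37, did not pass (adjusted p = 0.625 in edgeR). The summed level of the 19 genes was 1141 to 1382 CPM in Control and 1513 to 1756 CPM in the 15 EIC-injected mice. Cry1 was also higher, and Dbp lower, in EIC + S120 vs. EIC + S60, at LFCs of 1.13 and −0.72. The hour at which each kidney was taken is not given in the sources used here, and the part of clock phase in the levels of the 5 genes cannot be told apart from that of EIC.

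Markers of liver and skeletal muscle, tissues in which some of these genes are known, did not pass in any comparison with Control. The median LFCs of hepatocyte markers were 0.24 in EIC, −0.05 in EIC + S60 and 0.21 in EIC + S120, where the median over all genes was −0.01. Hepatocyte markers, 15 of 15 tested, summed to 374 to 569 CPM in Control, 492 to 732 in EIC, 351 to 613 in EIC + S60 and 270 to 743 in EIC + S120, and 0 passed in any group (1, 0 and 1 at an unadjusted p under 0.05, none by DESeq2 or limma-voom). Of skeletal muscle markers, 6 of 10 are in the files, with sums of 38.7 to 86.7 CPM over all mice, and 0 of 4 tested passed (1, 0 and 0 at an unadjusted p under 0.05, none by the other tools), while Myh4 was at 0 in all Control and all EIC + S60 mice. Among 13 proximal tubule, 5 podocyte, 13 mesangial and mural, 5 endothelial and 3 nerve markers tested, 0 passed in edgeR or limma-voom in any comparison with Control (at most 2 of a list at an unadjusted p under 0.05, and at most 1 by DESeq2). Aqp3 alone of 10 distal markers passed, lower in EIC + S120. Macrophage markers rose in EIC, 5 of 8, and 0 of 8 passed in either sparsentan group (4 each at an unadjusted p under 0.05, 1 each by DESeq2, none by limma-voom). Their sums were 81.3 to 104 CPM in Control and 97.8 to 255 CPM in EIC. With sparsentan they were 86.1 to 134 CPM at 60 mg/kg and 89.8 to 123 CPM at 120 mg/kg. The part of these cell types in the levels of the 5 genes was not tested.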

How the data were processed

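Kidney RNA of 20 mice, 1 library each, was compared in 4 groups of 5 taken from the sample labels. Whole-number read counts were deposited for each gene, which the authors made by trimming with Trimmomatic 0.36, aligning with STAR 2.5.2b to GRCm38 and counting with featureCounts of Subread 1.5.2. The annotation is not given in the sources used here, nor is the strand setting, and reads of overlapping genes such as Nat8f5 and Nat8f6 may have been shared or dropped. Counts were joined by symbol, and 15388 of 15780 symbols matched GENCODE vM21, ignoring case.

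A gene was kept if 5 or more libraries held 10 or more counts (13990 genes). edgeR 4.0.16 in R 4.3.3 fitted all 20 libraries with TMM scaling and 1 coefficient per group (robust quasi-likelihood, two-sided). P-values were adjusted by Benjamini-Hochberg over all genes, and genes under 0.05 were called DE. LFCs came from edgeR. SEs and intervals came from limma 3.58.1, fitted to log2 CPM (prior count 2), which shrinks low genes. Intervals of low genes are therefore not centred on the LFCs given, and their SEs are those of the shrunken LFCs. P-values set a difference between groups against the spread between mice within groups. The paper reports that cages were not controlled for, so p-values cannot separate any cage effect from treatment. Totals of 12662345 to 38651781 counts limit precision for Creb3l3, with 3 to 39 reads.

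The 5 genes and the 25 lists of related genes and markers were chosen with earlier results of these data known, so the lists are not independent evidence. Named were the 5 genes, all members of small families and all carboxylesterases, up to 4 genes with the smallest p from other lists, chromosomal neighbours, and the 5 nearest genes by r and the 3 nearest by deviations. The date-like symbol among the latter is not named, and a few genes of the lists and neighbours are counted but not reported here. Fasting and target genes beyond 4 were named after their values were seen.

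In counts simulated for EIC vs. Control on 13990 genes, 36, 47, 48 and 50 of 50 genes changed by 0.5, 1, 1.5 and 2 (log2) were called, with 12 false among 193 calls. The changed genes were drawn only from those with an expected count over 50 per library. Recovery at the lower counts of Creb3l3 was therefore not simulated. Alternatives were RLE scaling, no filter on low counts, DESeq2 1.42.0, limma-voom, fits of only the 10 libraries compared, leaving out the 2 deeper Control libraries, and leaving out each mouse.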

Additional observations from a re-analysis of the deposited data

Results flagged for a closer look

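For the 5 genes and the other NAT8 and carboxylesterase genes tested, 84 sets of 5 mice were searched for a single mouse far from the other 4 of its group by Dixon's ratio, and 2 were found, where chance flags about 1 in 20 sets. Ces1g in Control 653 was 0.498 CPM, low against 1.81 to 2.11 CPM in the other Control mice. Nat8f2 in EIC + S60 73 was 33.7 CPM, high against 22.04 to 25.2 CPM in the other mice of that group.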

How the results depend on the processing

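No alternative turned the direction of any of the 5 genes vs. Control. No scaling moved the median LFC of all genes by as much as 0.1. Creb3l3, with the fewest reads, was not called in EIC or EIC + S60 by limma-voom or in several fits that left out 1 mouse, and the cause was not tested. Nat8f5 in EIC + S120 vs. EIC + S60 passed with DESeq2 (LFC 0.76), and its LFC was 0.67 to 0.91 when 1 mouse was left out.

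DESeq2 called 704 genes in EIC vs. Control (416 in edgeR), 359 in EIC + S60 vs. Control (180), 5 (0) between EIC + S60 and EIC, 65 (8) between EIC + S120 and EIC and 81 in EIC + S120 vs. EIC + S60 (9). RLE scaling and no filter each gave 5 in EIC + S120 vs. EIC, and no filter gave 1 CREB3L3 target in EIC + S60. Fits of only the 10 libraries compared gave 143 genes in EIC vs. Control, 1 between EIC + S60 and EIC, 2 between EIC + S120 and EIC, 3 of the 5 genes in EIC + S60, 1 carboxylesterase and 0 CREB3L3 targets in EIC, and 1 target in EIC + S60. Without the deeper Control libraries 651 and 652, 124 and 119 genes were called in EIC and EIC + S60 vs. Control, 3 and 2 of the 5 genes, 1 carboxylesterase in EIC, and 1 CREB3L3 target in each. These fits hold fewer samples.

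When 1 mouse was left out, the calls ranged from 233 to 465 in EIC, 103 to 224 in EIC + S60 and 489 to 1173 in EIC + S120 vs. Control, from 0 to 1 between EIC + S60 and EIC, 1 to 14 between EIC + S120 and EIC and 2 to 54 in EIC + S120 vs. EIC + S60. Carboxylesterases higher ranged from 1 to 2 in EIC and 3 to 5 in EIC + S120, CREB3L3 targets from 0 to 4 in EIC and 0 to 2 in EIC + S60, and PPAR-alpha genes in EIC + S120 from 5 to 9. No paired analysis was possible because the mouse numbers differ between all groups. Low counts limit Creb3l3 and Thbs4 in Control.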

Other observations

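Genes that glucocorticoids induce were tested as a further list, since the Creb3l3 promoter holds the half-site of their receptor. Of 10 tested, the metallothioneins Mt1 and Mt2 rose in all groups vs. Control (Mt1 by 0.90, 0.85 and 1.07), and Fkbp5 and Tsc22d3 in EIC + S120, by 1.62 and 1.58. The others did not pass, and the list's median LFCs vs. Control were 0.66, 0.06 and 1.19. In EIC + S60 the LFCs of Zbtb16, Cdkn1a and Dusp1 were −1.15, −0.82 and −0.59. Fkbp5 was also higher in EIC + S120 than in EIC + S60, by 1.46 (edgeR adjusted p = 0.0391). Among 17 genes of endoplasmic reticulum stress 0 passed in EIC (4 at an unadjusted p under 0.05 in edgeR, 1 by DESeq2), Dnajb9 rose by 0.40 in EIC + S60, and Dnajb9 and Herpud1 by 0.41 and 0.83 in EIC + S120. Of 21 genes of lipid hydrolysis and lipid droplets, 0 passed in EIC or EIC + S60 (7 each at an unadjusted p under 0.05 in edgeR, 3 and 1 by DESeq2). In EIC + S120 G0s2, Dgat2 and Mttp rose by 0.74, 0.34 and 0.55, and Plin3 fell by 0.20 on the log2 scale. Adipocyte markers, 5 tested, had median LFCs of −3.19, −2.36 and −2.97 vs. Control, and 0 passed in edgeR, DESeq2 or limma-voom (4, 2 and 3 at an unadjusted p under 0.05), with Control 653 holding the highest level.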
